A study of Mus musculus with 6 samples.

Results

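The genes that set the fate of pyruvate were compared between livers of mice without miR-137 and wild-type livers. They were the pyruvate dehydrogenase (PDH) kinases Pdk1, Pdk2, Pdk3 and Pdk4, the PDH phosphatases Pdp1 and Pdp2, the PDH subunit gene Pdha1, the lactate dehydrogenase subunit genes Ldha and Ldhb, and the mitochondrial pyruvate carrier gene Mpc1. All probe sets that the platform annotation assigns to exactly 1 gene symbol, that symbol being among these names, were taken. This gave 18 of 45037 probe sets and 10 of 18193 genes. Every named gene was on the array.

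Total RNA from whole liver was measured on Affymetrix GeneChip arrays of the mouse genome. There were 3 Mir137-/- mice and 3 Mir137+/+ mice, all 14 days old, and each array held RNA of 1 mouse. Per the methods, Mir137-/- mice carried a germline deletion of exons 2 and 3 of the host transcript of miR-137, made with Cre in E14 ES cells, and so lacked the microRNA in the whole body and not in liver alone. The ES cells were of a strain other than C57BL/6 per the methods. The ES clones were injected into C57BL/6 blastocysts, and chimeras were crossed with C57BL/6 mice. The mice used in most of the study's experiments, wild types among them, came from intercrosses of heterozygous F1 littermates. The animals had no treatment, and no littermate pairs were given for the arrays. The p-values below rest on these 6 mice and set the difference between genotypes against the spread among mice of the same genotype. No probe set under the symbol Mir137 was used here, so the deletion itself was not read from the arrays.

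The deleted gene lies on chromosome 3, apart from all 10 genes described here. Its mature product is shown to identify what these mice lack, at chr3:118433901-118433923 (GRCm38.p6, + strand, RefSeq), with the seed, bases 2 to 8, in capitals.
mmu-miR-137-3p: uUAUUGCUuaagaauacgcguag

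Pyruvate from glycolysis enters mitochondria through a carrier made of the MPC1 and MPC2 proteins, and the PDH complex turns it irreversibly into acetyl-CoA. The PDK kinases phosphorylate the E1 alpha subunit, the product of Pdha1, and switch the complex off, and the PDP phosphatases switch it on again. In the cytosol, lactate dehydrogenase, a tetramer of LDHA and LDHB subunits, interconverts pyruvate and lactate. In liver, PDK4 is known to be induced by fasting, glucocorticoids and fatty acids and to be lowered by insulin, and most lactate dehydrogenase of adult mouse liver is made of LDHA subunits.

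Pdk4 and Ldhb were the 2 of 10 genes that were higher in Mir137-/- liver by the rule used throughout, an adjusted p below 0.05 in limma, corrected over all probe sets, together with a change above 1.5-fold. Pdk4 was 4.05-fold higher and Ldhb 2.91-fold higher by its brightest probe set, from which each gene with several was read. Among all 18193 genes read this way, 2.29% were called higher and 3.27% lower. None of the 10 genes was called lower in limma. At an unadjusted p below 0.05 in limma, 4 were higher and 2 lower. The share of all genes at that threshold was not counted, and the shares above do not apply to it. The methods' t-test after adjustment called 0 lower as well. That test also called 0 higher, with adjusted p = 0.0553 for Pdk4 and 0.0674 for Ldhb. The median difference, Mir137-/- minus Mir137+/+, was 0.17 on the log2 scale over the 10 genes and 0.00333 over all genes. Of the 18 probe sets, 5 were called higher and 0 lower, beside 1.94% and 2.58% of all probe sets, and the 5 were the only probe set of Pdk4 and all 4 of Ldhb. The arrays of the genotypes did not overlap for 5 of the 10 genes, beside 32.3% of all genes, with Mir137-/- higher for Pdk4, Ldhb, Ldha and Pdp1 and lower for Pdk2.

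**Figure D1:**
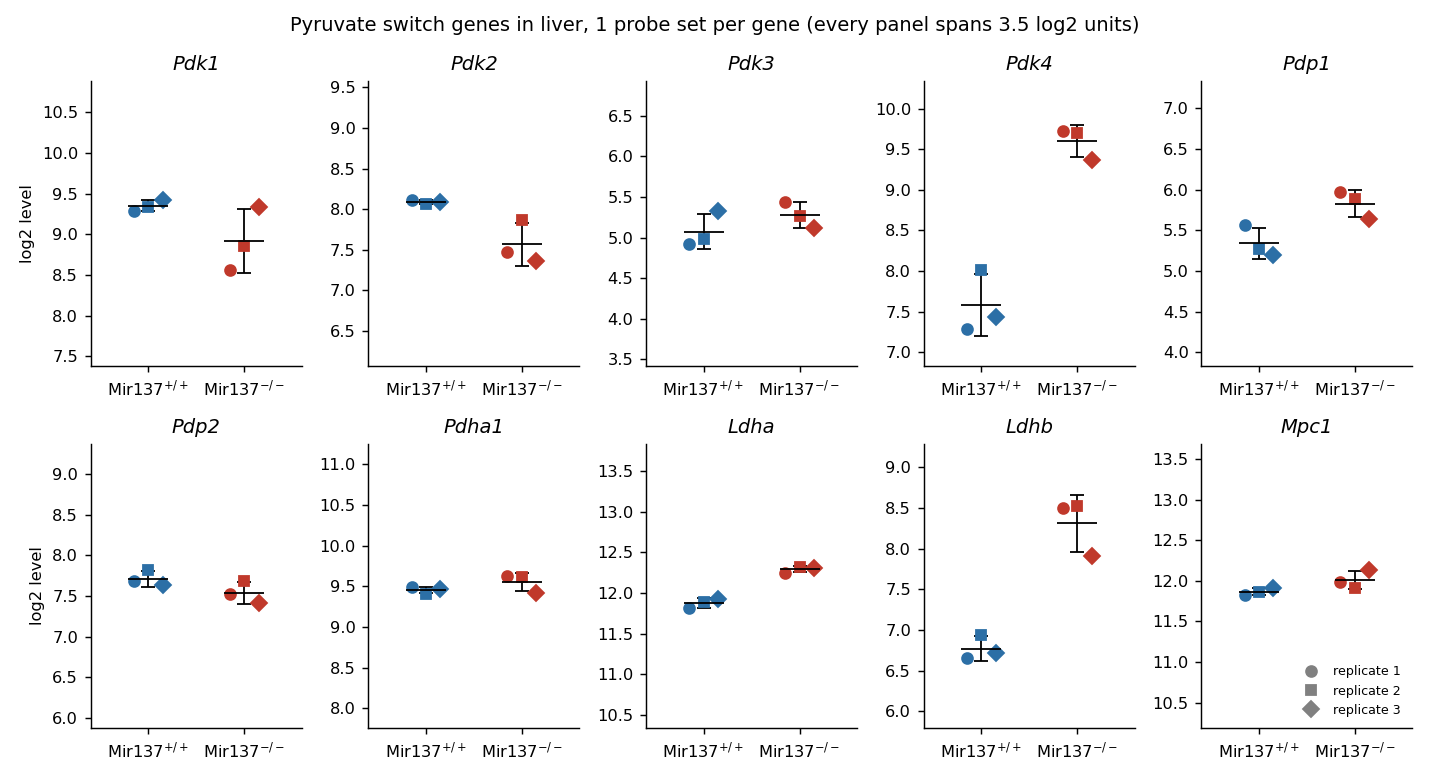
Log2 level of each of the 10 genes on the 6 arrays, 1 panel per gene, with Mir137+/+ at the left and Mir137-/- at the right. Points are single mice, marked by replicate number, and the lines are the mean and SD (n = 3). Every panel spans the same range of log2 units around its own centre, so heights can be compared as differences but not as levels. Pdk4 and Ldhb show the widest gaps between genotypes.

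Some arrays held signal that the groups do not account for. Xist, the RNA of the inactive X chromosome in females, stood at 10.91 and 10.81 on Mir137+/+ replicates 2 and 3 and between 3.66 and 4.24 on the other arrays, although the methods name male mice. The Y-linked gene Eif2s3y stood at 2.06 and 2.51 on those arrays and at 8.46 to 8.62 on the others. Arrays with this pattern occurred only among Mir137+/+, so genotype and sex, as read from these genes, were partly confounded. Mir137-/- replicate 1 carried skeletal muscle transcripts: all 18 muscle markers were measured, their median stood 3.01 log2 units above the wild-type mean on this array and within -0.04 to 0.17 on the others, and their log2 summed level was 8.71 to 12.84 in Mir137-/- and 8.50 to 8.63 in Mir137+/+. Exocrine pancreas transcripts, 14 of 20 measured, were raised on Mir137-/- replicate 2 and Mir137+/+ replicate 2, and summed to 9.68 to 12.65 in Mir137-/- and 9.73 to 11.46 in Mir137+/+. Hepatocyte markers summed to 16.42 to 16.47 in Mir137-/- and 16.50 to 16.52 in Mir137+/+, close but without overlap, with 0 of 13 called. Their median log2 difference was -0.04, and 30.8% of them were higher in Mir137-/-. Arg1 (-0.57) and Tdo2 (-0.46) were lower past the adjusted threshold in limma (adjusted p = 0.0163 and 0.0360), under 1.5-fold.

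Pdk4 encodes the kinase isoform best known for shutting PDH during fasting. Its probe set 1417273_at read 9.72, 9.70 and 9.37 in Mir137-/- and 7.29, 8.01 and 7.44 in Mir137+/+ (log2 level). The lowest Mir137-/- mouse lay above the highest wild-type mouse, and Mir137+/+ replicate 2 was the highest of the wild types. The means were 9.60 ± 0.20 and 7.58 ± 0.38 (SD, n = 3). The log2 difference was 2.02 (SE 0.19, 95% interval 1.58 to 2.45, limma adjusted p = 7.97e-04).

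The Pdk4 difference was 1.96 (adjusted p = 0.00378) without the array with muscle transcripts. It was 2.18 (adjusted p = 0.00667) without both arrays with pancreas transcripts. It stayed called in both fits. Without the wild-type arrays that carried Xist it was 2.31 (adjusted p = 0.0159), but there Mir137+/+ replicate 1 was the only wild type left, and the spread came from the Mir137-/- arrays alone. With all 3 arrays with muscle or pancreas transcripts left out, a fit chosen after seeing the data, 1 Mir137-/- array faced 2 wild types. The spread of this single array had to be taken from the rest. Pdk4 then differed by 2.01 (adjusted p = 0.330), and this fit called 0 of all probe sets.

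Ldhb encodes the lactate dehydrogenase subunit that predominates in heart, and tetramers rich in it are known for turning lactate into pyruvate. All 4 of its probe sets were called higher. The brightest, 1416183_a_at, read 8.50, 8.53 and 7.91 in Mir137-/- and 6.65, 6.94 and 6.72 in Mir137+/+ (log2 level). Every Mir137-/- mouse lay above every wild type, and Mir137-/- replicate 3 was the lowest of its group. The means were 8.31 ± 0.35 and 6.77 ± 0.15 (SD, n = 3), a log2 difference of 1.54 (SE 0.17, 95% interval 1.15 to 1.94, limma adjusted p = 0.00168).

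The other 3 Ldhb probe sets gave larger differences. Probe set 1434499_a_at read 8.23, 8.40 and 7.33 against 4.45, 5.20 and 5.07, a difference of 3.08 (SE 0.29, adjusted p = 7.99e-04). Probe set 1455235_x_at read 8.81, 8.97 and 8.11 against 5.50, 5.84 and 6.05, a difference of 2.83 (SE 0.23, adjusted p = 4.13e-04). Probe set 1448237_x_at read 8.12, 8.30 and 7.43 against 5.16, 5.57 and 5.74, a difference of 2.46 (SE 0.23, adjusted p = 8.14e-04). Mir137-/- replicate 3 was the lowest mouse of its group on all 4 probe sets and still lay above every wild type. The size of the Ldhb difference thus varied with the probe set and its direction did not. The wild-type values of 1434499_a_at lay near the array median of all probe sets, 4.88 to 4.91, and with no stated floor its difference is not an exact size. Whether the 4 probe sets read the same transcripts was not tested. Names ending in _x_at mark probe sets that may also read other sequences. Without such probe sets, both remaining Ldhb probe sets were called.

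Heart muscle holds much LDHB, so its markers are given beside it. Of 10 heart muscle markers, 8 lay below the array median of all probe sets on every array, and 0 were called. Their log2 summed level was 7.10 to 8.38 in Mir137-/-, with the highest on replicate 1, and 7.12 to 7.18 in Mir137+/+. Erythroid markers, 10 of 15 measured, summed to 10.61 to 10.97 in Mir137-/- and 10.81 to 10.92 in Mir137+/+. Without the array with muscle transcripts Ldhb differed by 1.45 (adjusted p = 0.00681), and without both arrays with pancreas transcripts by 1.52 (adjusted p = 0.0286). Without the wild-type arrays with Xist the difference of the brightest probe set was 1.66 and was no longer called (adjusted p = 0.0686), while the other 3 Ldhb probe sets were called, again with 1 wild type left. Without the 3 arrays with muscle or pancreas transcripts the brightest probe set differed by 1.23 (adjusted p = 0.330). In a fit of all 6 arrays that also had a term for the presence of Xist, which leaves Mir137+/+ replicate 1 as the wild-type array of the same kind, it was 1.66 and called (adjusted p = 0.0294).

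**Figure D2:**
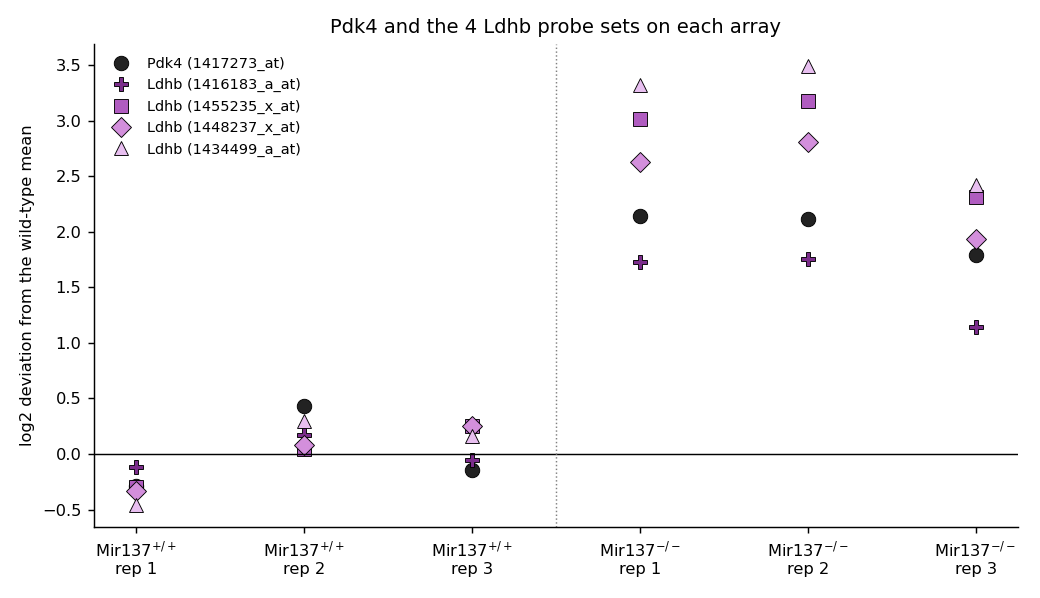
Log2 deviation from the Mir137+/+ mean for the Pdk4 probe set and the 4 Ldhb probe sets on each of the 6 arrays, with Mir137+/+ left of the dotted line and Mir137-/- right of it. The 5 probe sets stand well above the wild-type mean on all Mir137-/- arrays, and all are lowest among these on replicate 3.

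Ldha encodes the subunit that predominates in liver and skeletal muscle. Probe set 1419737_a_at read 12.25, 12.32 and 12.31 in Mir137-/- and 11.81, 11.89 and 11.93 in Mir137+/+. The genotypes did not overlap and each group was tight. The log2 difference was 0.42 (SE 0.09, 95% interval 0.21 to 0.62, limma adjusted p = 0.0284). It passed the adjusted threshold but, at 1.33-fold, not the fold threshold. Over the 23 other settings the Ldha difference stayed at 0.38 to 0.48, but its adjusted p did not always stay below 0.05. It was 0.0614 or higher with any single array left out, 0.0653 with the replicate block and 0.156 with the term for Xist. It remained below 0.05 under others, such as 0.0299 with array weights and 0.0445 with the methods' t-test.

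The change of Ldhb was also set against that of Ldha. Within an array, the log2 value of Ldhb minus that of Ldha was -3.75, -3.79 and -4.40 in Mir137-/- and -5.16, -4.95 and -5.21 in Mir137+/+. Different probe sets do not share a scale, so only the change of this value can be read. It shifted by 1.13 toward Ldhb, with no overlap between the genotypes (exact two-sided permutation p = 0.1, the smallest that 3 against 3 arrays can give).

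None of the other PDH kinase genes was called. Pdk2, an isoform widely expressed and abundant in liver, read 7.47, 7.87 and 7.36 in Mir137-/- and 8.11, 8.06 and 8.09 in Mir137+/+. All Mir137-/- values lay below all wild-type values. The log2 difference was -0.52 (SE 0.14, 95% interval -0.83 to -0.21, limma adjusted p = 0.0557), short of both thresholds. Some other settings with all 6 arrays gave an adjusted p below 0.05, under 1.5-fold in each. It was 0.0137 with eBayes with trend and robust and 0.0409 with array weights. Others with all 6 arrays gave a higher adjusted p than reported. It was 0.0809 with the replicate number as a block, 0.193 with the methods' t-test and 0.304 with the term for Xist.

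Pdk1, a kinase known as a target of HIF-1, had 4 probe sets that disagreed. The brightest, 1423747_a_at, read 8.56, 8.86 and 9.34 against 9.29, 9.34 and 9.42, with Mir137-/- replicate 3 among the wild types. Its difference was -0.43 (95% interval -0.84 to -0.02, adjusted p = 0.201). Probe set 1435836_at read 6.84, 6.95 and 7.03 against 7.29, 7.35 and 7.47 and did separate the genotypes. That difference was also -0.43 (95% interval -0.66 to -0.20, adjusted p = 0.0367), past the adjusted threshold and under 1.5-fold. The remaining probe sets, 1423748_at and 1434974_at, differed by -0.07 and 0.12 (adjusted p = 0.712 and 0.784).

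Leaving out arrays moved these kinases in either direction. Without Mir137-/- replicate 3, Pdk1 was called lower at -0.64 (adjusted p = 0.0282). Without Mir137-/- replicate 1, which carried the muscle transcripts, Pdk1 differed by -0.25 (adjusted p = 0.438), and without the 3 arrays with muscle or pancreas transcripts by -0.015 (adjusted p = 0.968). Without Mir137-/- replicate 2, Pdk2 was called lower at -0.67 (adjusted p = 0.0139). Without Mir137-/- replicate 1 or 3, Pdk2 differed by -0.47 or -0.42 and was not called (adjusted p = 0.148 and 0.123). Markers of neutrophils and B cell precursors were also lower in Mir137-/-. Of these, 7 of 10 neutrophil and 7 of 9 B cell precursor markers were called lower, with log2 summed levels of 9.77 to 10.43 against 11.44 to 11.86 and of 8.05 to 8.26 against 9.05 to 9.24. Their part in the lower Pdk1 and Pdk2 values was not tested. In whole liver, fewer cells of a type and less RNA per cell cannot be told apart.

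Pdk3, an isoform best known from testis and brain, read 5.44, 5.27 and 5.12 against 4.92, 4.98 and 5.32. The groups overlapped, and the log2 difference was 0.20 (95% interval -0.11 to 0.51, adjusted p = 0.439). Pdk3 is X-linked, and without the wild-type arrays with Xist it differed by 0.36 (adjusted p = 0.516).

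Set against the mean of Pdk1, Pdk2 and Pdk3 on the same array, the log2 value of Pdk4 stood at 2.56, 2.37 and 2.10 in Mir137-/- and at -0.15, 0.55 and -0.17 in Mir137+/+. The change of 2.27 was slightly larger than that of Pdk4 alone, and the genotypes did not overlap (exact two-sided permutation p = 0.1, the smallest possible).

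The phosphatase genes were not called. Pdp1, the calcium-sensitive isoform, read 5.97, 5.88 and 5.64 in Mir137-/- against 5.56, 5.27 and 5.20. The genotypes did not overlap. The log2 difference was 0.49 (SE 0.13, 95% interval 0.18 to 0.79, adjusted p = 0.0630), and its second probe set 1438201_at gave 0.46 (95% interval 0.10 to 0.82, adjusted p = 0.121). The Pdp1 difference was 0.27 with the term for Xist (adjusted p = 0.547) and also without the wild-type arrays with Xist. It was 0.26 without the 3 arrays with muscle or pancreas transcripts. Under some other settings the adjusted p of Pdp1 was below 0.05, such as 0.0389 without the dimmest probe sets, with the difference under 1.5-fold in each. Pdp2, the isoform known to respond to insulin, read 7.52, 7.68 and 7.41 against 7.68, 7.82 and 7.63 and overlapped, with a difference of -0.17 (95% interval -0.42 to 0.07, adjusted p = 0.405).

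The substrate of these enzymes and the carrier that feeds it showed no called difference. Pdha1, X-linked, read 9.63, 9.61 and 9.42 against 9.49, 9.41 and 9.47 on probe set 1418560_at, a difference of 0.10 (95% interval -0.13 to 0.32, adjusted p = 0.632). On probe set 1449137_at it read 8.63, 8.61 and 8.64 against 8.50, 8.06 and 8.27. These values did not overlap, and the difference was 0.35 (95% interval 0.07 to 0.63, adjusted p = 0.131). Mpc1 read 11.98, 11.91 and 12.13 against 11.83, 11.86 and 11.91, which met at 11.91, with a difference of 0.14 (95% interval -0.08 to 0.36, adjusted p = 0.461). For Pdp2, Pdha1, Pdk3 and Mpc1 the intervals of the probe sets that read the genes lay within 1.5-fold in both directions.

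**Figure D3:**
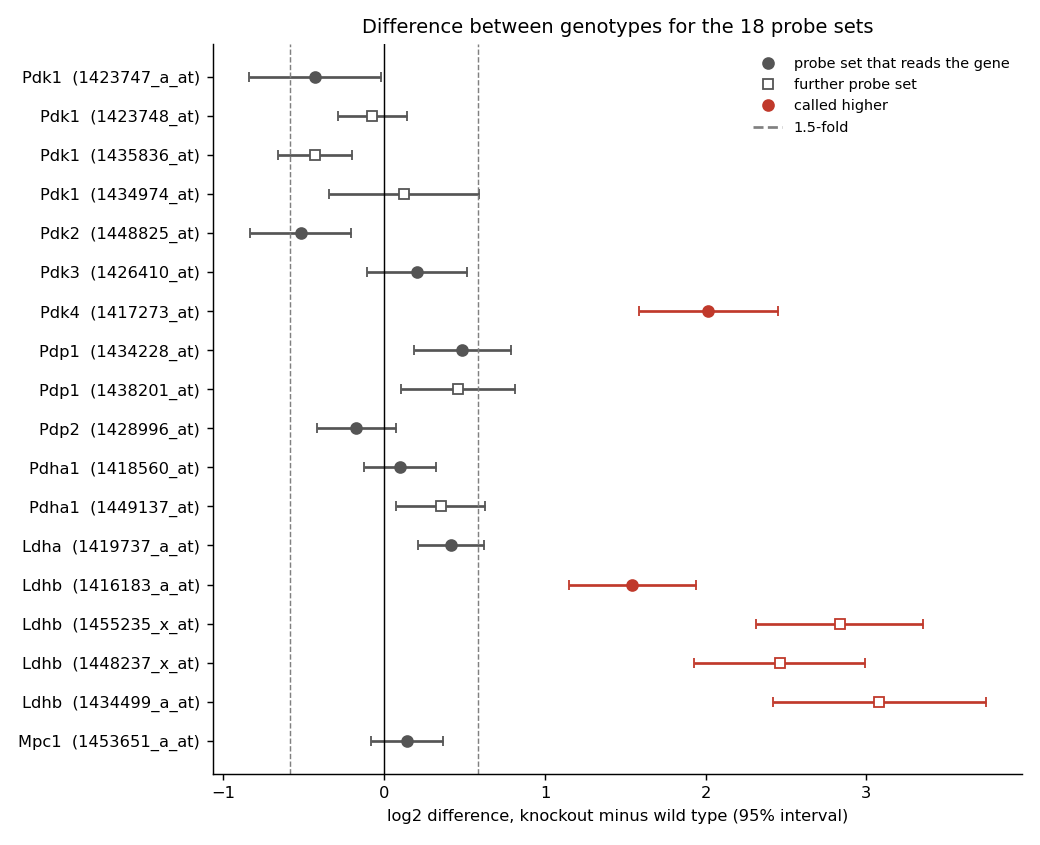
Log2 difference, Mir137-/- minus Mir137+/+, with its 95% interval for each of the 18 probe sets. Filled circles are the probe sets from which genes were read, open squares are further probe sets, red marks those called higher, and dashed lines stand at 1.5-fold. The Pdk4 probe set and all 4 Ldhb probe sets lie beyond the right line, with the Ldhb differences spread from 1.54 to 3.08.

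Over the 6 arrays the values of Pdk4 and Ldhb ran together (Pearson r = 0.984), as did the 4 Ldhb probe sets with each other (r from 0.989 to 0.999). The Pdk1 probe sets did so far less (r from 0.0605 to 0.897), and r was 0.461 between Pdk1 and Pdk2. The points share the same arrays and fall into the 2 genotypes, so these values are descriptions. Among 11484 genes read from a probe set above the overall median, those most like Pdk4 over the 6 arrays were Pea15a, Sfxn3, Kifc3, Stk40 and Igfbp2 (r from 0.995 to 0.997). Of these, only Igfbp2, an IGF-binding protein gene, was called, at 0.66. Those most like Ldhb were Auts2, Psph, Kcnj8, Pla2g6 and Reps1 (r from 0.997 to 0.999), of which Auts2 (1.96), Pla2g6 (0.91) and Reps1 (0.69) were called higher.

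The rest of the PDH complex and the related mitochondrial kinase and phosphatases gave 1 call higher and 0 lower among 7 genes, with a median log2 difference of -0.08. The call was Ppm1k, the phosphatase that activates the branched-chain keto acid dehydrogenase. It read 10.95, 11.05 and 11.08 in Mir137-/- and 10.53, 10.42 and 10.37 in Mir137+/+. The difference of 0.59 (SE 0.10, adjusted p = 0.00886) sat at the fold threshold, and a second Ppm1k probe set at 0.63 was not called (adjusted p = 0.0620). Bckdk, the kinase that opposes it, differed by -0.17 (adjusted p = 0.452). Pdhb, the partner of Pdha1 in the E1 enzyme and named after its value was seen, differed by -0.48 (adjusted p = 0.0202), under 1.5-fold.

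Of 13 measured enzymes that also make or use pyruvate or lactate, 0 were called higher and 2 lower, with a median of 0.03. Gpt, the alanine aminotransferase that links alanine to pyruvate, read 7.67, 8.26 and 7.49 in Mir137-/- and 10.61, 10.53 and 10.55 in Mir137+/+. The Mir137-/- mice lay far below the wild types, and the log2 difference was -2.76 (SE 0.18, adjusted p = 1.95e-04), larger in size than that of any of the 10 pyruvate genes read the same way. A second Gpt probe set differed by -1.08 (adjusted p = 0.00138). Ldhd, which makes pyruvate from D-lactate, read 6.40, 6.41 and 6.10 against 7.26, 7.24 and 7.19. Its difference was -0.93 (SE 0.11, adjusted p = 0.00226), and its second probe set at -0.78 was called lower too. Pyruvate carboxylase (Pcx, 0.19), liver pyruvate kinase (Pklr, -0.32) and cytosolic PEP carboxykinase (Pck1, 0.03) were not called (adjusted p = 0.289, 0.129 and 0.907).

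The pyruvate and lactate carriers other than Mpc1 (5 of 6 measured, median 0.19), the genes of acetyl-CoA use and the citrate cycle (19 of 21 measured, median -0.02) and the NADH shuttles (8 of 8 measured, median 0.08) held no call in limma. The smallest p in each belonged to Bsg, the chaperone of lactate carriers, at -0.32 (adjusted p = 0.0814), to Acly, ATP citrate lyase, at -0.58 (adjusted p = 0.0206), and to Gpd2, the mitochondrial glycerol phosphate dehydrogenase, at 0.39 (adjusted p = 0.0942). Acly stayed just short of 1.5-fold on its brightest probe set, and a dimmer one, 1439459_x_at, was called lower at -0.84. Slc16a1, the lactate carrier MCT1, differed by 0.37 (adjusted p = 0.144).

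Genes reported to act on Pdk4, insulin signalling genes among them, held calls in both directions. Of 21 genes, 3 were called higher and 1 lower, with a median of -0.02. Pparg, a nuclear receptor gene low in normal liver, read 7.63, 7.80 and 7.39 against 6.39, 6.33 and 6.01, a difference of 1.36 (SE 0.14, adjusted p = 0.00126). Irs2, an insulin receptor substrate, differed by 0.73 (adjusted p = 0.0437), and Nr0b2, the corepressor SHP, by 0.78 (adjusted p = 0.0111). Cebpb, a transcription factor of the acute phase and gluconeogenesis, was lower at -0.68 (adjusted p = 0.0163). The genes best known for driving Pdk4 in liver were not called: Ppara differed by -0.22 (adjusted p = 0.232), Foxo1 by -0.15 (adjusted p = 0.499), Ppargc1a by 0.40 (adjusted p = 0.414) and Nr3c1, the glucocorticoid receptor gene, by -0.36 (adjusted p = 0.107). Transcript levels do not show the activity of these factors.

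**Figure D4:**
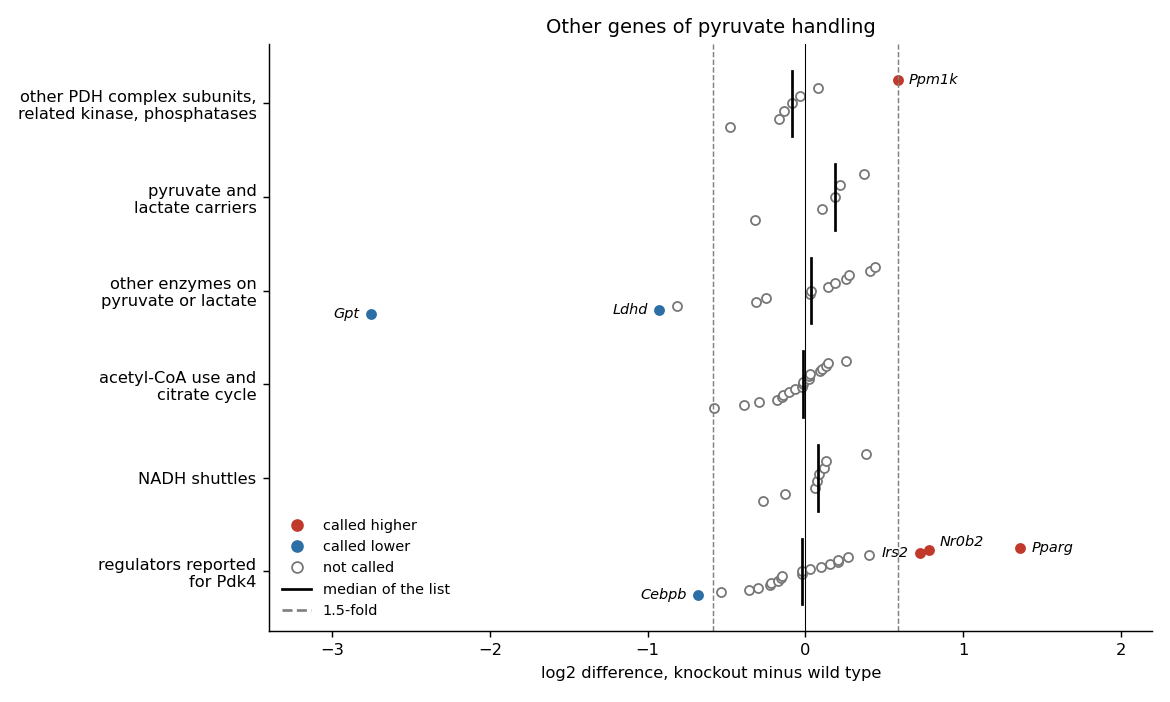
Log2 difference, Mir137-/- minus Mir137+/+, of the measured genes in 6 lists around the pyruvate switch, each gene read from its brightest probe set. Red points were called higher, blue lower and open points were not called, black bars are list medians, and dashed lines stand at 1.5-fold. The medians lie between -0.08 and 0.19, with Ppm1k, Pparg, Irs2 and Nr0b2 called to the right and Gpt, Ldhd and Cebpb to the left.

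The promoters of Pdk4 and Ldhb are shown because these were the genes called. Of the 10 genes, 9 had at least 1 promoter window in the RefSeq table (13 windows), each from 250 bases before to 50 bases after a transcript start. Both sequences run 5′ to 3′ on the gene's own strand in GRCm38.p6. Capitals mark matches on either strand to AGGTCA, the core hexamer of nuclear receptor elements, or to GCGTG, a core of the hypoxia element.
Pdk4, chr6:5496229-5496528, - strand: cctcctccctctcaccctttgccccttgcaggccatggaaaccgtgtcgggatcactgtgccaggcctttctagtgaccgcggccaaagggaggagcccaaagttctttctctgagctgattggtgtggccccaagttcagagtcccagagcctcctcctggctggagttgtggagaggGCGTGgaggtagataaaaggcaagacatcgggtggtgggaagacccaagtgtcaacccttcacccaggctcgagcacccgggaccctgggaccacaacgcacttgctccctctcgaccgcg
Ldhb, chr6:142507908-142508207, - strand: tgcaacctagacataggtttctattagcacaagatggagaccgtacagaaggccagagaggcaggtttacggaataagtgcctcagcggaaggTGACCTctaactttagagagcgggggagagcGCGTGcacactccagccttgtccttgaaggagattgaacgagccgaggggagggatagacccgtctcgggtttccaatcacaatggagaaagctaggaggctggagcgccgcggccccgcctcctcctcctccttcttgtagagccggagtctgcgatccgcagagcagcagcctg

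The Pdk4 window held 1 GCGTG, 71 bases before the start, and the Ldhb window held 1 AGGTCA, read on the other strand, 157 bases before the start, and 1 GCGTG 126 bases before it. GCGTG occurred in 32.4% of 32851 promoter windows and AGGTCA in 16.3%. AGGTCA occurred in a window of Mpc1 as well as in that of Ldhb. GCGTG occurred in windows of 7 of the genes, Pdk4 and Ldhb among them. The other form of the hypoxia core, ACGTG (19.6% of windows), lay in windows of Ldha, Pdk2, Pdk3 and Pdp2. AGAACA, the core of glucocorticoid receptor elements (19.0%), lay in a Pdk1 window. GTAAACA, a forkhead site (3.65%), lay in none of the 13 windows, and sequence outside the windows was not searched. Pdk4 and Ldhb lie on the same chromosome, far apart, at chr6:5483351-5496278 and chr6:142490249-142507957, both on the - strand.

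**Figure D5:**
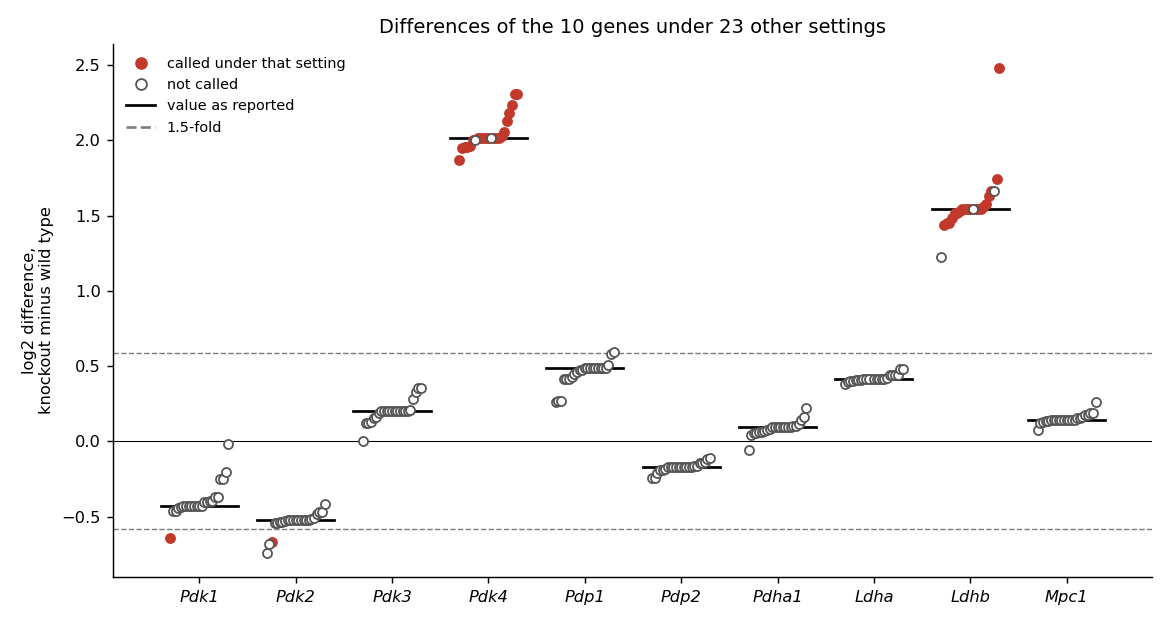
Log2 difference of each of the 10 genes under 23 other settings of the analysis, such as another test, another scaling or a left-out array. Filled points were called under that setting and open points were not, black lines are the values as reported, and dashed lines stand at 1.5-fold. Pdk4 stays between 1.87 and 2.31 and Ldhb between 1.23 and 2.48, whereas Pdk1 and Pdk2 pass the threshold with 1 array left out.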

How the data were processed

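The deposited table held log2 probe set values made by the authors, as RMA with a baseline-to-mean step per the methods and as GCRMA, with no version, per the labels. These log2 values were levels, not centred per probe set, with a median of 4.88 to 4.91 on each of the 6 arrays, and were used without further normalization. The definition file and any filter were not given in the sources used here, and no detection calls were used, so a low value has no stated floor. The 64 control probe sets were left out. Of 45037 probe sets, 34945 had 1 gene symbol, 932 several and 9160 none in the platform annotation, whose older symbols were updated by Entrez gene, and 34741 matched the RefSeq gene table (GRCm38.p6).

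Groups came from the genotype label. limma (version 3.58.1) in R (version 4.3.3) fitted all 6 arrays without covariates, and p-values were two-sided and Benjamini-Hochberg adjusted over all probe sets. A call needed an adjusted p below 0.05 and more than 1.5-fold, the thresholds named in the methods. A gene was read from its brightest probe set by the mean of all 6 arrays. Simulated data served to test the fit. With 3 against 3 arrays, an exact permutation test cannot go below 0.1, and the number of arrays limits the precision.

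The 10 genes, the pathway and marker lists and the tests were chosen with earlier results of these data known. The text names every probe set of the 10 genes, each called gene of a pathway list (or the gene with the smallest p where none was called), and the 5 genes most correlated with Pdk4 and with Ldhb. Further list genes (Pdhb, Bckdk, Pcx, Pklr, Pck1, Slc16a1, Ppara, Foxo1, Ppargc1a and Nr3c1) and the single markers were added to the text with their values known. Some listed genes were not analysed here. Of the other marker lists, Kupffer cells (median difference 0.04), liver endothelium (0.14), bile duct cells (-0.08) and fat cells (0.20) held no call in limma, and stellate cells (0.09) held 1 in each direction. The erythroid list held 1 call lower (Car1), at a median of -0.08.

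Other settings comprised eBayes with trend and robust, the methods' t-test, adjusted or not, no fold threshold, array weights (statmod, version 1.5.0), median centring, quantile normalization, leaving out the 40% dimmest probe sets or those ending in _s_at or _x_at, 1 value per gene, the replicate number as a block, each array left out in turn, a term for the presence of Xist, and fits without the arrays with Xist, muscle or pancreas transcripts. Leaving out muscle and pancreas arrays together was added after seeing the data.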

Additional observations from a re-analysis of the deposited data

How the results depend on the processing

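The directions of Pdk4 and Ldhb were the same under all 23 alternatives, at 1.87 to 2.31 for Pdk4 (adjusted p from 3.19e-04 to 0.330) and 1.23 to 2.48 for Ldhb (adjusted p from 1.44e-04 to 0.330), the latter highest with its 4 probe sets averaged. The number of the 10 genes called higher, 2 as reported, was 0 with the methods' adjusted t-test (adjusted p = 0.0553 for Pdk4 and 0.0674 for Ldhb), 1 without the wild-type arrays with Xist, and 0 without the arrays with muscle or pancreas transcripts. The number of probe sets called higher, 5 as reported, was 1 with the adjusted t-test, 3 without probe sets ending in _s_at or _x_at, and 0 without the arrays with muscle or pancreas transcripts. The number of genes called lower, 0 as reported, ranged from 0 to 1 with single arrays left out, and was 1 without Mir137-/- replicate 2 (Pdk2) and 1 without Mir137-/- replicate 3 (Pdk1). The number of probe sets called lower ranged from 0 to 1 in the same fits and was 1 with no fold threshold. Over these fits with single arrays left out, genes called higher stayed at 2 and probe sets called higher at 5. Without the arrays with muscle or pancreas transcripts the Pdha1 difference was -0.06, of the opposite sign, and was not called in either fit. With no fold threshold, Ldha was called as well. The shift of Ldhb against Ldha was 0.79 to 2.06 and that of Pdk4 against the other kinases 2.14 to 2.50 over 13 alternatives. The causes of these changes were not tested.

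Nothing given paired the mice by replicate number. The correlations of same-numbered deviations were 0.081, 0.211 and 0.00440, and those of different numbers lay between -0.152 and 0.0783. Whether the numbers pair the mice cannot be told from these values. With the replicate block, 2 of the 10 genes and 5 of the 18 probe sets were called higher and 0 lower. Over all probe sets, calls higher and lower, 874 and 1162 as reported, were 826 and 1091 with the block, 196 and 279 with the adjusted t-test, 1517 and 1964 with no fold threshold, 289 and 353 with sex as a term, 125 and 157 without the arrays with Xist, 393 and 574 without the arrays with pancreas transcripts, and 0 and 0 without the arrays with muscle or pancreas transcripts. With 1 value per gene, averaged probe sets gave 330 and 509 and the brightest 425 and 607.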
